A study of Mus musculus with 8 samples.

Results

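Exon-skipping junctions are spliced reads that join 2 exons and leave out the exon between them. They were found in the junction tables of 8 mouse liver libraries. A junction was taken as skipping when 2 other junctions existed, 1 sharing its left end and 1 its right end, and exactly 1 annotated exon filled the gap between those 2. The 3 junctions also had to hold 20 or more reads together in every library. The members were thus chosen by the presence and the read numbers of their junctions in these same libraries, and those values are given as a description. The rule found 4453 such junctions among 231440 junctions in all. They left out 3992 distinct exons of 2170 named genes, and 78 of the junctions lay in no named gene.

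A cassette exon is one that the spliceosome can either keep or leave out, so that 1 gene yields messenger RNAs with and without it. Skipping an exon whose length is a multiple of 3 removes amino acids and keeps the reading frame, whereas skipping any other coding exon shifts the frame downstream. SR proteins generally favour inclusion of the exons they bind and many hnRNPs favour skipping. The liver is known for splice choices of its own, among them the removal of the extra domains from the fibronectin that hepatocytes secrete into plasma.

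The livers came from wild-type C57/BL6 mice held in constant darkness after a week of light and dark cycles, and polyadenylated RNA was sequenced. There was 1 library at each of 8 circadian times (CT) over 2 days, from CT23 to CT65 at steps of 6 h, each from a pool of 3 animals, with no replicates. The 8 times hold 4 clock phases sampled on both days: the end of the subjective night (CT23 and CT47), the middle of the subjective day (CT29 and CT53), its end (CT35 and CT59) and the middle of the subjective night (CT41 and CT65). The labels give neither sex nor age. Because each value is 1 pool of whole liver, fewer cells of a type and less RNA per cell cannot be told apart.

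The junction tables held 5270743 to 6227130 reads in 7 libraries and 14749911 in CT35. Exon-skipping junctions with at least 1 read made up 34.5 to 38.0% of the 4453 in the 7 libraries and 51.5% in CT35. The markers of liver were present: the 5 hepatocyte genes had medians of 482 RPKM (reads scaled for length and depth) or more, led by Alb. The medians were 3.98 to 6.10 RPKM for 4 endothelial genes, 1.02 to 14.1 RPKM for the 3 measured macrophage genes and at most 2.37 RPKM for 4 stellate and 4 bile duct genes. For 3 blood genes they were 0.193 to 26.8 RPKM, highest for Hba-a1. The part of these cells in any splice value was not tested.

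The exons below carry the results that follow. Their positions are in the mm9 build, and their letters were read from transcripts of GENCODE M21 whose IDs and exon lengths matched those in the deposited tables. Each is coding throughout and holds 0 stop codons in the frame of the matched transcript. Capitals mark the first and the last 3 bases, where the exon meets its neighbours. The first are the 2 fibronectin exons, which are left out almost always, at chr1:71650234-71650503 (270 bases) and chr1:71660337-71660609 (273 bases), both on the minus strand.
Fn1 exon of 270 bases: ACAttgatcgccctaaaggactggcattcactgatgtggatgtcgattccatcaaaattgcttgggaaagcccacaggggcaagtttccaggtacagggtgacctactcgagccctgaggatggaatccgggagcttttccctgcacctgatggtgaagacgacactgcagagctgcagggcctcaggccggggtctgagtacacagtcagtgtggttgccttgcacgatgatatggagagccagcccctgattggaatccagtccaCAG
Fn1 exon of 273 bases: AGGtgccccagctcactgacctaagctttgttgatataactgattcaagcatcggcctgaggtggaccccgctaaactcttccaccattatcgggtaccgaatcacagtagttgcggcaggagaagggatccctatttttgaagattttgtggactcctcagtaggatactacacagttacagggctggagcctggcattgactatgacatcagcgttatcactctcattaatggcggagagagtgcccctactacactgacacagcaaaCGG

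The next 5 exons lie in genes for RNA-binding proteins and were kept in some messenger RNAs and left out of others. They lie at chr11:51415252-51415392 (Hnrnpab, minus strand), chr15:102316379-102316471 and chr15:102319207-102319245 (Pcbp2, plus strand), chr6:51414427-51414546 (Hnrnpa2b1, minus strand) and chr6:38548785-38548814 (Luc7l2, plus strand). Their lengths of 141, 93, 39, 120 and 30 bases are all multiples of 3. This does not hold for every skipped exon of such genes. Those of 139 and 50 bases in Hnrnph1 and of 76 bases in Sf1, among others, are not multiples of 3.
Hnrnpab exon: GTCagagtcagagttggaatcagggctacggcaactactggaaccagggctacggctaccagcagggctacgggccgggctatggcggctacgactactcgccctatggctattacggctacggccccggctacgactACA
Pcbp2 exon of 93 bases: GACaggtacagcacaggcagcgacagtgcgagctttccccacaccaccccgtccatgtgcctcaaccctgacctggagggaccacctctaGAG
Pcbp2 exon of 39 bases: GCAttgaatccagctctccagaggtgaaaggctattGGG
Hnrnpa2b1 exon: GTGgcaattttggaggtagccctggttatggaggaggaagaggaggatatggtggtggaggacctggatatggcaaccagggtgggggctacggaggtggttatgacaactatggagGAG
Luc7l2 exon: GTCccgatcacatagcaagaatcccaaAAG

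The last 5 are exons described further on for their values by circadian time. They lie at chr11:80206586-80206678 (Zfp207, 93 bases, plus strand), chr12:60245686-60245757 (Mia2, 72 bases, plus strand), chr5:100798615-100798653 (Sec31a, 39 bases, minus strand), chr2:30042707-30042827 (Kyat1, 121 bases, minus strand) and chr1:34880865-34880900 (Fam168b, 36 bases, minus strand).
Zfp207 exon: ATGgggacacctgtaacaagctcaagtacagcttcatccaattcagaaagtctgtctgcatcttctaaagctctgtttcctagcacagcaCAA
Mia2 exon: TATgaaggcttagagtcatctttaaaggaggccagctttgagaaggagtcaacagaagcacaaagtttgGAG
Sec31a exon: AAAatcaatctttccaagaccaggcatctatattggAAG
Kyat1 exon: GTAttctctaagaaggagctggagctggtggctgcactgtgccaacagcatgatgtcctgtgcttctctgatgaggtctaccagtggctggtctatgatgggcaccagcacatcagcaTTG
Fam168b exon: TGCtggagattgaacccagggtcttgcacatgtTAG

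In Mia2, Sec31a and Kyat1 the skipping junction is not an intron of the deposited transcript models, so the letters across the joint are given as well. The last 15 bases of the exon before it are in lower case and the first 15 of the exon after it are in capitals.
Mia2 across the joint: attgttcaaaaggagTTTGTTGAAGGATCA
Sec31a across the joint: cgtcccaaagaacagGTCCTCAGAATGGTT
Kyat1 across the joint: aaccctctgggaaagCCAGCCTCCCTGGCA

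Most exon-skipping junctions were rare. The share of skipping is the number of skipping reads over the skipping reads plus the mean of the 2 inclusion junctions, in percent, and its mean over the 8 libraries had a median of 0.443% over the 4453 junctions. A total of 1855 junctions were seen as 1 read in all 8 libraries together, 1982 in 1 library only and 613 in all 8. At the other end, skipping was the major form for 272 junctions, with a mean share over 50%. For a junction seen as 1 read, the share is set by the depth of the inclusion junctions and says little more than that the read exists.

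Shares ran from traces to near complete omission, and the higher they were, the more of the junctions were annotated. Of the 3078 junctions with a mean share under 1%, 7.51% were introns of the deposited transcript models. That proportion was 25.6% of 781 junctions between 1 and 5%, 46.4% of 140 between 5 and 10%, 78.6% of 182 between 10 and 50%, 94.6% of 112 between 50 and 90%, and 99.4% of 160 above 90%. Both inclusion junctions were annotated introns for 3766 of the 4453.

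**Figure D1:**
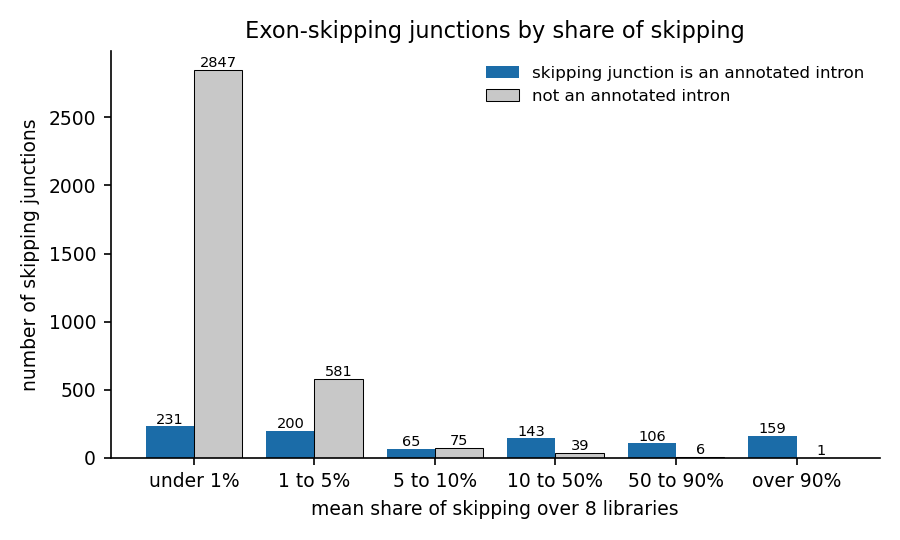
Number of exon-skipping junctions (vertical axis) in 6 classes of the mean share of skipping over 8 libraries (horizontal axis), with blue bars for skipping junctions that are annotated introns and grey bars for the others. Under 1% there are 231 annotated and 2847 other junctions, and above 90% there are 159 annotated and 1 other.

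The length of the skipped exon, which the rule did not use, went with the share. Among exons skipped in 10 to 50% of messages, 71.4% had a length that was a multiple of 3 (130 of 182), and among those skipped in 50 to 90% it was 66.1% (74 of 112). Under 1% the proportion was 41.8%, and between 1 and 5% it was 40.7%. Over 28051 internal exons with spliced reads at both ends and the same read minimum, it was 38.8%. Above 90% the proportion was lower again, 53.1% (85 of 160). Counting each exon once gave 73.7% of 167 exons between 10 and 50% and 42.0% of 2708 exons under 1%.

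Within the range of 10 to 90%, the proportion was 71.5% where the skipping junction was annotated (178 of 249) and 57.8% where it was not (26 of 45). Under 1% it was 42.4% of 231 annotated and 41.8% of 2847 other junctions. Between 1 and 5% it was 46.0% of 200 annotated and 38.9% of 581 other junctions. These proportions are descriptions of the members, and their differences were not tested.

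**Figure D2:**
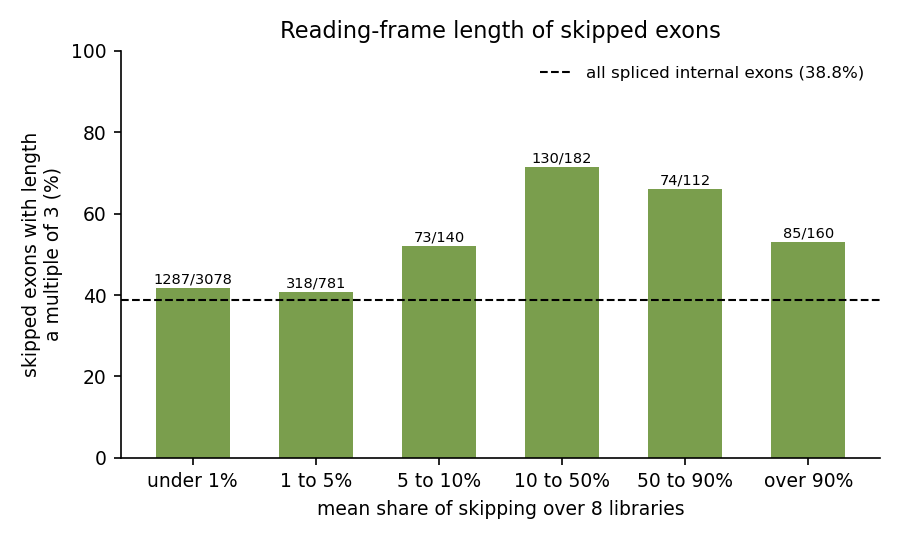
Percentage of skipped exons whose length is a multiple of 3 (vertical axis) in 6 classes of the mean share of skipping (horizontal axis), with the number of such exons over all exons of the class above each bar and, as a dashed line, the value over all spliced internal exons. The bars of 10 to 50% (71.4%) and 50 to 90% (66.1%) stand well above the line at 38.8%, and those under 5% lie close to it.

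Frequently skipped exons were also short. The median length was 118 bases under 1%, 93.5 bases between 10 and 50%, 90 bases between 50 and 90% and 84 bases above 90%, against 122 bases over the internal exons. Microexons, counted here up to 30 bases, were 1.04% of the exons skipped under 1% and 8.04% of those skipped in 50 to 90% (9 of 112), against 0.685% of internal exons. The 30-base exon of Luc7l2, printed above, and the 24-base exon of Picalm are microexons of lower classes, with mean shares of 37.2 and 5.30%.

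Exon coverage gave a second view of the same events. The RPKM of the skipped exon, as a percentage of the mean of its 2 neighbouring exons, had a median of 109% where the share of skipping was under 1%, 90.7% between 10 and 50%, 32.6% between 50 and 90% and 4.75% above 90%. Across 558 of the junctions with enough reads on both sides, Spearman's rho between the share and the relative coverage was -0.647. It was -0.658 across 401 of them with an exon of 50 bases or more and inclusion junctions within 4-fold of each other. The points share libraries, depth and genes, and reads across the inclusion junctions may also count in the exon's coverage, so the 2 readouts are not fully independent. For single exons the coverage often did not mirror the share: between 10 and 50%, its quartiles were 66.8 and 134%. Its mean was 145% for the 87-base exon of Abi1, 136% for that of Luc7l2 and 100% for that of Ceacam1. For the 93-base exon of Pcbp2 it was 44.7%.

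**Figure D3:**
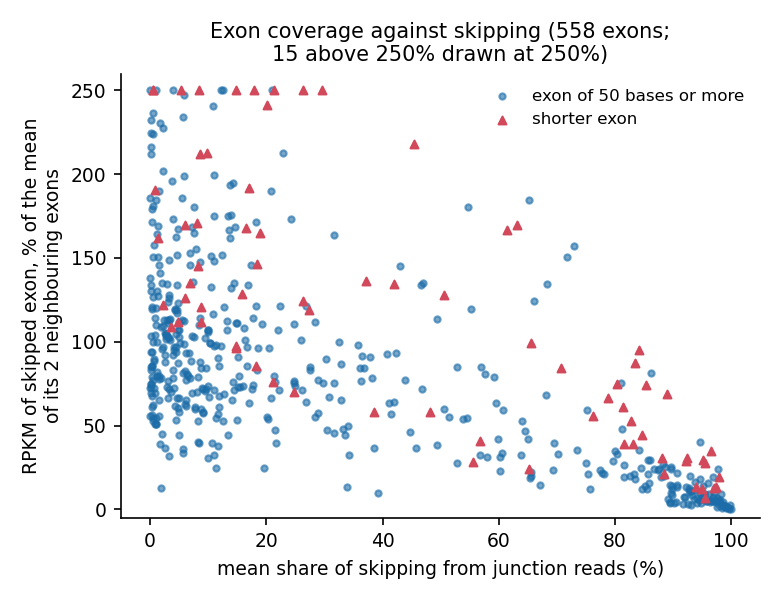
RPKM of the skipped exon as a percentage of the mean of its 2 neighbouring exons (vertical axis) against the mean share of skipping from junction reads (horizontal axis) for 558 exons, with red triangles for exons under 50 bases. Points above 250% are drawn at 250% (15 exons), and coverage falls to a few percent where skipping is above 90%.

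Among the junctions of highest share with a mean of 100 or more reads, the skipped exon was nearly absent. Mgst1, which encodes a microsomal glutathione S-transferase, had 52138 reads that skipped an exon of 108 bases at chr6:138102017-138102124 and 88 reads into or out of it, a mean share of 99.9% (SD 0.0255 over 8 libraries). Selenop, the plasma carrier of selenium, skipped a 51-base exon at 99.8% in the mean. Neither exon is wholly coding in its matched transcript. Serpinf1 (PEDF, an inhibitor of blood vessel growth) with a 50-base exon, Atp5j2 (a subunit of ATP synthase) with 130 bases and Coq8a (coenzyme Q synthesis) with 99 bases were likewise near 100%, with 99.95, 99.97 and 99.88%. The same held for Idh2 (mitochondrial isocitrate dehydrogenase) and Chchd3 (cristae junctions), both with 99.8%. In all 7 of these genes the exon carries a Vega name only and lies in 1 or 2 of the deposited transcript models. Their skipping junctions are annotated introns, so a high share there need not mean a cassette exon that liver removes. An unnamed 29-base exon on chromosome 17 was skipped at 99.9%. In Capzb, a capping protein of actin filaments, the 113-base exon was skipped by 6166 reads and joined at either end by 16.

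Fibronectin showed near complete omission of both of its extra domains, whose exons are named by RefSeq. Hepatocytes are known to make plasma fibronectin, which lacks the domains called EDA and EDB that many other cells include. The 270-base exon (EDA) was skipped in 99.2% of messages in the library with the least skipping and 99.9% in the one with the most, from 4368 skipping and 27 inclusion reads in all. Across the 273-base exon (EDB) there were 3091 skipping and 5 inclusion reads, with shares of 99.8 to 100%. The exons themselves had 0.512% and 0.119% of the RPKM of their neighbours. Other exons of Fn1 were kept, and the 107-base one had a mean share of 0.0995%.

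Genes for RNA-binding proteins held several cassette exons at middle shares. Hnrnpab, an hnRNP that binds AU-rich RNA, skipped its 141-base exon in 72.2, 73.0, 58.3, 49.0, 65.6, 60.8, 69.2 and 72.1% of messages, in the order CT23 to CT65. The lowest value, in CT41, had a counting interval of 37.8 to 59.7% (95%, Wilson) and the highest, in CT29, of 64.7 to 80.0%. Of the 4 pairs of libraries that share a clock phase, CT41 and CT65 lay farthest apart. The intervals cover counting error only, as the reads carry no molecular identifiers.

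Pcbp2, a poly(C)-binding protein, held a 93-base exon whose skipping hardly varied, with 31.7, 32.8, 36.3, 33.5, 35.9, 33.7, 29.2 and 34.8% from CT23 to CT65. All 8 libraries lay within 8 percentage points. Its 39-base exon was skipped less, at a mean of 8.77% (SD 1.92 over 8 libraries). Hnrnpa2b1, an hnRNP that also sorts RNA for transport, skipped its 120-base exon in 20.9 to 40.5% of messages, lowest in CT53 and highest in CT23. The shares of Luc7l2, a U1 snRNP-associated factor, ran over 30.6 to 45.1%, and those of the 139-base exon of Hnrnph1 over 12.4 to 35.9%.

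Sf1, the branch point binder, skipped a 76-base exon in 2.12 to 7.11% of messages, and Srrm1, an SR-related matrix protein, a 42-base exon at 15.8%. Both Srrm1 and Hnrnph1 had a second exon among the members, of 38 bases in Srrm1 (skipped at 99.4%) and of 50 bases in Hnrnph1 (7.95%). The 38-base exon carries a Vega name only. By list, the SR proteins and their relatives held 12 junctions, hnRNPs and other RNA binders 36 and the core spliceosome 7. Of these, 2, 10 and 2 had enough reads on both sides to be fitted, and 0 had a called 24-h component or an unadjusted p under 0.05, against 8.55% of all sites tested at that unadjusted threshold. Among the fitted ones, the exon length was a multiple of 3 in 2 of 2, 7 of 10 and 1 of 2. Skipping was tested against inclusion over a 24-h curve with edgeR's quasi-likelihood test, adjusted over 1474 splice sites, of which 0% had an adjusted p under 0.05 and were called.

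In a list of 53 genes known for tissue-regulated cassette exons, 24 genes held 60 junctions with a median share of 3.08%. The 23 that could be fitted, which takes 20 skipping reads, had a median of 43.0%, against 16.8% over all 594 fitted. Their exon lengths were multiples of 3 in 18 of 23, against 353 of the 594 (59.4%). Abi1, an actin regulator, skipped its 87-base exon in 37.4, 34.8, 40.8, 42.1, 46.6, 46.8, 44.4 and 51.2% of messages from CT23 to CT65. The first 2 libraries were lowest and the last was highest, across clock phases. Aplp2, a relative of the amyloid precursor protein, skipped 168 bases at a mean of 9.15%, Nfix (a nuclear factor I) 123 bases at 9.62%, Nfia 129 bases at 3.30% and Picalm (clathrin assembly) 24 bases at 5.30%. The list of 25 clock genes held only 3 junctions, in Csnk1d and Cry2. The 63-base exon of Csnk1d, a casein kinase that phosphorylates PER proteins, was skipped at a mean of 18.4% (SD 6.78 over 8 libraries) from 33 skipping reads in all, and was the only one fitted. In these 2 lists edgeR called 0 of the 23 and 0 of the 1, and none had an unadjusted p under 0.05, against 0% and 8.55% of the 1474.

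Some of the lowest shares were those of plasma protein messages, whose inclusion junctions were read very deeply. In the list of 60 plasma protein genes, 52 genes held 203 junctions with a median share of 0.0475%, which that depth bounds where only 1 read skipped. Alb, serum albumin, held 20 of them, second only to Mug1, a protease inhibitor of plasma, with 21. The 29 junctions of the list that could be fitted had a median share of 1.16%, up to 99.7% in Fn1, and 2 of them had an unadjusted p under 0.05 (edgeR, 0 called), against 8.55% of the 1474. For the most-read of the Alb junctions, over a 133-base exon at chr5:90903593-90903725, the share was 0.0509% in CT35 and 0.0018 to 0.0066% in the other 7 libraries. In reads, 207 of its 241 skipping reads came from CT35. The CT35 library also had the most junction reads, and the part of that library in the result was not tested.

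The list of 41 genes of lipid and carbohydrate metabolism held 88 junctions in 25 genes, with a median share of 0.172%. Of these 18 could be fitted, with a median share of 7.01%, and 2 had an unadjusted p under 0.05 (edgeR, 0 called), against 8.55% of the 1474. Only 1 or 2 reads in all skipped the exons of Scd1 (fatty acid desaturation) and Slc10a1 (bile acid uptake) that were read most, both under 0.01% in the mean. Mlxipl, the glucose sensor ChREBP, had 25 reads over a 185-base exon, a mean share of 0.26%. In 115 of the 594 junctions that could be fitted, 1 inclusion junction had over 4 times the reads of the other.

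Circadian time was then asked of each skipping junction. Only 594 of the 4453 (13.3%), in 454 genes, had 20 or more reads over all libraries on both the skipping and the inclusion side, and these entered the test. They were fitted together with 880 other splice sites used by more than 1 junction, 1474 in all. EdgeR's quasi-likelihood test compared skipping with inclusion reads within each library, through cosine and sine terms with a 24-h period, and p-values were adjusted over the 1474. With 5 residual degrees of freedom, a p-value here reflects how far single pools scatter about the curve. Differences between animals are part of that scatter and cannot be measured on their own.

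No exon-skipping junction had a called 24-h component. At an adjusted p under 0.05 edgeR called 0 of the 594 and 0 of the 1474 (0%), and DESeq2 called 0 of each. At an unadjusted p under 0.05 there were 44 exon-skipping junctions (7.41%), 82 of the 880 other sites (9.32%) and 126 in all (8.55%) with edgeR, and 25 and 65 in all with DESeq2. A limma fit on the log2 odds called 7 of the 1474 (0.475%), of which 3 were exon-skipping junctions, in Zfp207, Mia2 and Fmo5. The smallest adjusted p of a member with edgeR was 0.308. The median fitted peak to trough was 0.92 on the log2 odds scale, with a median standard error (SE) of 0.70. This size cannot be negative, so scatter alone raises it. For 1274 simulated sites with no change, exon-skipping junctions and other sites together, the median was 0.82. Their dispersion of 0.03 was set and not estimated from these data, so the part of scatter in the 0.92 was not measured.

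Library to library, the middle of the distribution barely moved. The median share of the 594 junctions was 17.1, 18.5, 16.5, 17.6, 19.1, 16.1, 18.3 and 16.3% from CT23 to CT65. For 45 junctions with 100 or more reads in every library and a mean share of 10 to 90%, the SD of the share over the 8 libraries ran from 1.77 to 15.7 percentage points, with a median of 5.12.

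The members that stood nearest to a call are described next. They were picked after their values had been seen, and their values are a description. Zfp207, a zinc finger protein of the mitotic spindle, had the smallest p. Its 93-base exon was skipped in 97.5, 86.3, 90.5, 95.2, 94.8, 90.2, 90.6 and 96.9% of messages from CT23 to CT65. The 4 libraries of the subjective night lay at 94.8% or more and the 4 of the subjective day at 90.6% or less, so the groups did not overlap. Night and day libraries did not overlap, in either direction, in 31 of the 594 exon-skipping junctions (5.22%) and in 69 of the 1474 sites (4.68%). Every night library lay above every day library in 18 exon-skipping junctions (3.03%) and 37 sites in all (2.51%), and below it in 13 (2.19%) and 32 (2.17%), so the members' shares were near those of all sites. The interval was 81.3 to 89.8% in CT29, the lowest, and 94.7 to 98.9% in CT23, the highest (95%, Wilson). Those of the nearest night and day libraries overlapped, with 90.6 to 96.9% in CT47 and 85.7 to 93.7% in CT59. The fitted peak to trough was 2.23 on the log2 odds scale (SE 0.46) with the peak at 19.6 h (SE 0.79), edgeR adjusted p = 0.308, and limma adjusted p = 0.0106.

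The coverage of the Zfp207 exon moved the other way. Relative to its neighbours it was 5.40, 24.1, 13.5, 8.76, 9.44, 17.8, 17.7 and 5.78% from CT23 to CT65. The lowest values were those of CT23 and CT65, where skipping was highest, and the highest was that of CT29, where skipping was lowest.

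Mia2 and Sec31a both encode proteins of the sites where cargo leaves the endoplasmic reticulum: MIA2 helps load cargo there and SEC31A is part of the outer COPII coat. The 72-base exon of Mia2 was skipped in 43.2, 29.5, 25.5, 39.1, 39.2, 21.2, 22.9 and 32.0% of messages from CT23 to CT65. Subjective night libraries lay at 32.0% or more and subjective day libraries at 29.5% or less. The fitted peak to trough was 1.32 (log2 odds, SE 0.39) with the peak at 20.9 h (SE 1.13), edgeR adjusted p = 0.479 and limma adjusted p = 0.022. The exon's relative coverage was lowest in CT23, with 39.0%, and highest in CT35, with 54.0%.

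The 39-base exon of Sec31a printed above was skipped in 26.7, 5.71, 12.1, 23.9, 20.5, 4.30, 7.46 and 18.02% of messages from CT23 to CT65. Night and day libraries did not overlap here, with 18.02% as the lowest of the night and 12.1% as the highest of the day. Reads were few, with 79 skipping reads in all, and the interval was 1.17 to 14.2% in CT53 and 17.1 to 39.0% in CT23 (95%, Wilson). Those of the nearest night and day libraries overlapped, with 10.0 to 29.8% in CT65 and 7.47 to 19.0% in CT35. The fitted peak to trough was 2.43 (log2 odds, SE 0.63) with the peak at 19.5 h (SE 0.93) and an edgeR adjusted p = 0.375. The exon's relative coverage did not mirror this in full, with 79.8% in CT23, 82.1% in CT29 and 131% in CT35. Another 39-base exon of Sec31a, at chr5:100818087-100818125, was also among the members and is not described here.

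Kyat1, a kynurenine aminotransferase, skipped its 121-base exon in 16.7, 7.45, 5.23, 14.1, 10.2, 9.21, 6.78 and 20.5% of messages from CT23 to CT65. The length is no multiple of 3, and the junction lies outside the transcript models. The night values lay at 10.2% or more and the day values at 9.21% or less, a gap of about 1 percentage point. Its edgeR adjusted p was 0.479. The exon's relative coverage was lowest in CT29, with 50.3%, and highest in CT35, with 63.3%, both libraries of the subjective day. A 98-base exon of Kyat1 was also among the members and is not described here.

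A metabolic gene followed, with a nearly absent exon that carries a Vega name only. Fmo5, a flavin monooxygenase, skipped 157 bases at chr3:97433495-97433651 in 99.4, 98.6, 95.7, 99.0, 98.5, 97.9, 96.5 and 98.6% of messages from CT23 to CT65. CT29, with 98.6%, overlapped the night libraries. The exon was used most in CT35 and CT59, the 2 libraries of the end of the subjective day, and its relative coverage was highest there as well, with 7.84 and 11.6% against 2.94 to 6.16% in the other 6. The limma adjusted p was 0.022 and the edgeR adjusted p was 0.312.

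Fam168b, a protein that restrains neurite outgrowth in brain, skipped its 36-base exon in 98.0, 99.5, 92.8, 95.3, 96.2, 100, 95.3 and 87.0% of messages from CT23 to CT65, from 43 inclusion reads in all. For CT53, where 0 inclusion reads were seen, the interval reached down to 95.4% (Wilson). The fitted peak to trough of 3.98 (log2 odds, SE 0.98) rested on few reads and had an edgeR adjusted p = 0.308.

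**Figure D4:**
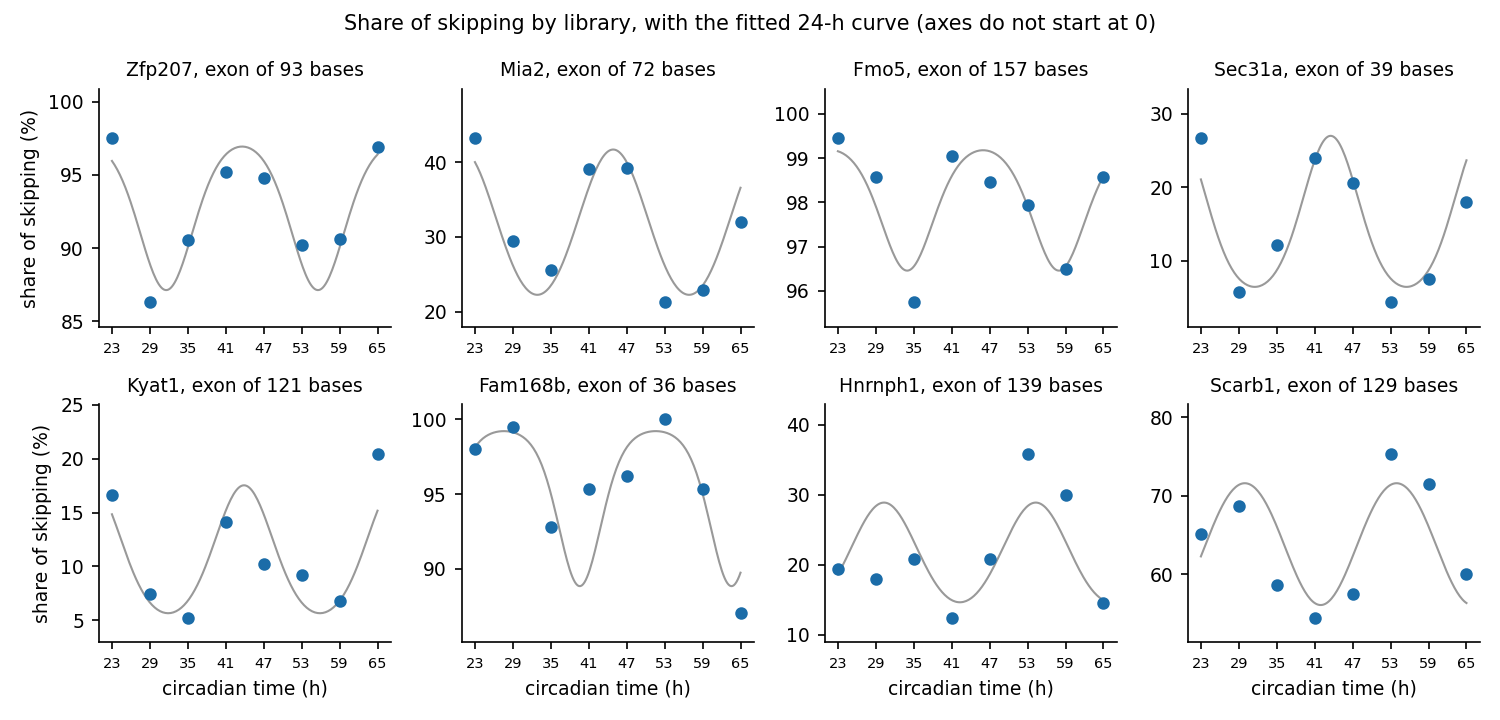
Share of skipping (vertical axes, percent, not starting at 0) by circadian time (horizontal axes, hours) for 8 exon-skipping junctions, with 1 blue point per library and the fitted 24-h curve in grey. Skipping of the Zfp207, Mia2, Sec31a and Kyat1 exons is lowest in the subjective day libraries (CT29, CT35, CT53 and CT59).

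Of the 8 deeply read members with the largest fitted share differences, Mia2 and Kyat1 are described above. Scarb1, the HDL receptor, is known to yield 2 receptor forms with different cytoplasmic tails by skipping or keeping 1 exon near its end. Its 129-base exon at chr5:125761475-125761603 was skipped in 65.2, 68.7, 58.7, 54.5, 57.5, 75.4, 71.5 and 60.1% of messages from CT23 to CT65. The exon's RPKM was 38.8% of its neighbours in CT53, where skipping was highest, and 60.1% in CT41, where it was lowest. The edgeR adjusted p was 0.58, and the 2 inclusion junctions differed 4-fold in reads (log2 2.08).

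Ceacam1, an adhesion molecule that takes part in insulin clearance, skipped 285 bases at a mean of 32.5%, between 20.7% in CT53 and 40.5% in CT65. Cdhr5, a cadherin of the brush border, skipped 486 bases at a mean of 58.0%, between 45.6% in CT23 and 70.3% in CT35. BC024386 ran between 36.9% in CT47 and 66.4% in CT65 with 149 bases, and an unnamed 1360-base exon on chromosome 7 between 20.3% in CT29 and 68.9% in CT35, with at most 46.4% in the other 7 libraries. In Ceacam1, BC024386 and the unnamed exon 1 inclusion junction had over 40 times the reads of the other, so the share there rests on 1 junction. The adjusted p of these 4 ran from 0.72 to 0.779.

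At the 20-read minimum of the rule, the members just inside were exons of Brd8, Cald1, Cspp1, Kank1 and Xaf1, each with 20 reads over the 3 junctions in its shallowest library. Just outside, with 19 reads, were exons of Cyp4a14, Lpin2, Hnrnpk, Slc7a2 and Ntan1. The mean shares of the 5 inside were 12.7, 65.5, 3.46, 4.41 and 0.694%, and those of the 5 outside 0.113, 2.37, 0.207, 0.124 and 4.49%. Without a read minimum, 11331 junctions met the rest of the rule.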

How the data were processed

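Junction tables of 8 liver libraries hold the count of reads per splice junction, which the authors deposited unscaled, per the file headers, with high-quality junctions from RUM. The deposited transcript tables list lower and upper values per exon, taken as RPKM (the lower one was used), on mm9 per the submitters' processing notes. The sources used here do not give the RUM version, thresholds, read length or strand, so genes that overlap or share paralogs cannot be separated.

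An intron ran from BED start plus 51 to BED end less 50. Where several exons fitted 1 skipping junction (269 of 4453), the one with most inclusion reads was kept. Names came from RefSeq (4109 junctions) and Vega identifiers (266). Skipping and summed inclusion counts per library entered edgeR 4.0.16 (quasi-likelihood) as paired columns with a term per library. Limma 3.58.1 on log2 odds (pseudocount 0.5) and DESeq2 1.42.0 served as alternatives. The fit was tested on simulated counts, with the spread set at a dispersion of 0.03. It called 0.1% of unchanged sites, and 3, 32.8 and 65.2% of those given a peak to trough of 1, 2 and 3 (log2 odds). Day of collection was tried as a block, and correlations of day differences between phases of -0.0799 to 0.0815 gave no pairing. Named were the junctions of highest share, nearest the minimum, of largest fitted share difference and in 7 gene lists, and those of smallest p or called by limma were added after their values were seen. Members and lists were chosen with earlier results of these data known. Results for some genes are not reported here.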

Additional observations from a re-analysis of the deposited data

How the results depend on the processing

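With edgeR, 0 exon-skipping junctions and 0 of all sites were called in every setting tried: 4 phases as a factor, day as a replicate block (0 calls, no pairing of samples), no filter on low reads, minimums of 10 or 50 reads, all junctions sharing an end, every possible exon counted, and each library left out (0 to 0 calls, with 31 to 49 members at an unadjusted p under 0.05). DESeq2 also gave 0. Limma called 7 sites, 3 of them exon-skipping junctions: Zfp207 (log2 peak to trough 2.16), Fmo5 (2.16) and Mia2 (1.26). The cause was not tested. Over 13 named junctions and 143 refits that give a direction, 140 kept it uncalled, 3 were called and 0 turned round, and 0 of 13 fits with phases as a factor were called. The 3 are the limma calls above. The 13 were picked for large fitted differences, smallest p or limma calls, and the refits reused all or most of the same libraries. Few could thus turn round, and the 0 is no independent support.

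The median share of 0.443% became 1.14% when the smaller inclusion junction replaced the mean of both, and ran from 0.44 to 0.47% without 1 library, 0.47% without CT35. Depth is 1 limit: 3780 junctions had under 20 skipping reads and 79 under 20 inclusion reads, so their time course was not detectable here.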
